A study of Homo sapiens with 5 samples.

Results

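Topoisomerase II and the genes of the p53 response were represented by 9 genes, TOP2A, TOP2B, MDM2, CDKN1A, BAX, BBC3, GADD45A, ATM and CHEK2. Reduced representation bisulfite sequencing (RRBS), which reads methylation at CpG sites in DNA fragments cut at CCGG, had been summarised in 1000-base windows. A window was counted with a gene if the deposited annotation gave it that symbol or if it overlapped the gene extended by 1500 bases on each side. This rule, which uses symbols and positions, found 85 of 288391 windows. MDM2 had 15 windows, BBC3 16, CHEK2 14, ATM 12, TOP2A 7, CDKN1A 6, BAX 6, TOP2B 5 and GADD45A 4. The annotation had given 39 of the 85 windows to another gene or to none, and 17 carried a member's symbol but lay away from the gene. TOP2B was absent from the deposited symbols and was placed by its RefSeq position on GRCh38.p14.

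The topoisomerase II enzymes TOP2A and TOP2B pass one DNA duplex through a transient break in another, TOP2A mainly in dividing cells and TOP2B in dividing and resting cells alike. Etoposide traps the enzyme on the broken DNA. The kinase ATM senses the break, activates the kinase CHEK2, and both lead to stabilisation of p53, which MDM2 otherwise marks for degradation. Among p53 targets, CDKN1A (p21) stops the cell cycle, GADD45A acts in growth arrest and DNA repair, and BAX and BBC3 (PUMA) start mitochondrial apoptosis. Pluripotent stem cells are known for their readiness to undergo apoptosis after DNA breaks. Methylated CpG islands at 5′ ends are usually associated with silent genes.

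The cells were human induced pluripotent stem cells of the line 201B7 (HPS0063), labelled wild type (WT), and all were treated for 48 h. The vehicle control received 0.1% DMSO, and the other groups received 1 nM etoposide, 1 µM propyl gallate (a phenolic antioxidant), 1 µM theophylline (a methylxanthine) or 10 nM 5-aza-dc (5-aza-2′-deoxycytidine, an inhibitor of DNA methyltransferases). The comparisons ask whether methylation at these genes differed between each chemical and the vehicle. Each condition was a single library of a single line, so the tests below compare 2 libraries and cannot separate the effect of a chemical from the spread between cultures.

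A methylation level is the share of CpG calls in a window that were methylated, given in percent. The libraries held between 188844639 and 228919184 calls in windows, with a median of 398 to 499 calls per window. In the 85 windows a library had between 10 and 6248 calls, and 2 windows had fewer than 30 in some library. Several calls can come from 1 read, so all 95% intervals cover counting error only and are too narrow. As a check of the cell type, the windows at or nearest the annotated 5′ ends of SOX2, LIN28A, DPPA4 and SALL4 were below 5% in all 5 libraries. TDGF1 lay between 5.75 and 8.22%, ZFP42 between 37.2 and 60.9% and POU5F1 between 83.2 and 87.9%, and NANOG had no window near its 5′ end. These are 5′ ends of the deposited annotation, and they were not compared with RefSeq starts, so a high level need not be that of the promoter in use. At the annotated ends, the methylation data did not mark all 8 pluripotency genes alike.

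Promoter sequences are shown for genes whose 5′ ends differ in the number of CpG and CCGG sites, the letters that RRBS reads and cuts. They come from RefSeq on GRCh38.p14, run 5′ to 3′ on the gene's strand from 250 bases before to 50 bases after a transcription start, and carry each CpG in capitals. TOP2A lies at chr17:40417847-40418146 on the minus strand, CDKN1A at chr6:36678464-36678763 on the plus strand, BAX at chr19:48954625-48954924 on the plus strand, CHEK2 at chr22:28741771-28742070 on the minus strand and BBC3 at chr19:47232618-47232917 on the minus strand.
TOP2A: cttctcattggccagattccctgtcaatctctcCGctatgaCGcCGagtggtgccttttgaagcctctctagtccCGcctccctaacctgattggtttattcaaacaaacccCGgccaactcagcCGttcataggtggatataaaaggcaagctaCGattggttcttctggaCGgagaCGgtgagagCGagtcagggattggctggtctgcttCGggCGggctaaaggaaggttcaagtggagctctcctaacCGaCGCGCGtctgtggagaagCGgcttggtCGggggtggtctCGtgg
CDKN1A: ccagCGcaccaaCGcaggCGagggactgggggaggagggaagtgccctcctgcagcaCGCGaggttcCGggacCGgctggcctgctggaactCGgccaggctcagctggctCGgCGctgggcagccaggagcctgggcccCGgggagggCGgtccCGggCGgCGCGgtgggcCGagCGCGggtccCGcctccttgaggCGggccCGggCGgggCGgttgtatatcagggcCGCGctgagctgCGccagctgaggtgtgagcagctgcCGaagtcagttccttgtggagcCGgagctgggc
BAX: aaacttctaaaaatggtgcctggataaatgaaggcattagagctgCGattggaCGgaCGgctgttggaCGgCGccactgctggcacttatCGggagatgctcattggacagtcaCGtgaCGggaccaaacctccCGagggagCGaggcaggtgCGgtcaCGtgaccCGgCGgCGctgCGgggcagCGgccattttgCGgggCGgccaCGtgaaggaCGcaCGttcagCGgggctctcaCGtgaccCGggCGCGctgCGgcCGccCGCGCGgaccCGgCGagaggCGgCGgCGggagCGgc
CHEK2: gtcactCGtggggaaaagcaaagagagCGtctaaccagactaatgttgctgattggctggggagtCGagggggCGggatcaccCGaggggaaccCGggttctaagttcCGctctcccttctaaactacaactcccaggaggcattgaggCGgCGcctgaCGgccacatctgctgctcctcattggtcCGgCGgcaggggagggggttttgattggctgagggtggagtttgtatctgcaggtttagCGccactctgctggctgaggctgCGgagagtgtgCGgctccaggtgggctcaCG
BBC3: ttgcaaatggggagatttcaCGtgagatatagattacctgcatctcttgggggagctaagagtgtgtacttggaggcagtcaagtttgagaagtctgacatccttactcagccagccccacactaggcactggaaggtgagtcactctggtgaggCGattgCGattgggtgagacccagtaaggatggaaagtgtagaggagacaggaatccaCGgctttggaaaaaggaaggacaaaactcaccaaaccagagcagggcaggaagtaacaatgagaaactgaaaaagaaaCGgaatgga

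The BAX sequence held 38 CpG sites, CDKN1A 29, TOP2A 19, CHEK2 16 and BBC3 5, against a median of 14 over 35116 RefSeq promoter records of the same length. CCGG occurred 6 times in CDKN1A, 3 times in BAX, 2 times in CHEK2 and 1 time in TOP2A, and 63.1% of all records held it. The BBC3 sequence held no CCGG, and no deposited window covered it. In total, 8 of the 9 genes matched 13 records. The GC box GGGCGG, searched on both strands, occurred in 45.0% of all records, 4 times in CDKN1A and 2 times in BAX. The p53 half-site consensus, whose letters read the same on both strands, was in 6.63% of all records and in none of the 13, which says only that these letters were not in these stretches.

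The 5′ ends of most genes were almost free of methylation in every library. In 8 of the 9 genes, the window that held the annotated 5′ end or lay nearest to it was below 5% in all 5 libraries. Among all 11794 CpG island windows that held the 5′ end of their gene, 8222 (69.7%) were below 5% in all 5. The exception was CDKN1A, whose nearest window (chr6:36675001-36676000, 460 bases upstream) was at 93.6% in the control, 93.1% after etoposide, 93.9% after theophylline, 93.0% after propyl gallate and 93.6% after 5-aza-dc. The deposited 5′ end of CDKN1A lies upstream of the RefSeq start printed above, and the window holding that RefSeq start (chr6:36678001-36679000), chosen after its values were seen, was at 1.55% in the control, 1.76% after etoposide, 2.89% after theophylline, 2.47% after propyl gallate and 1.52% after 5-aza-dc. The RefSeq start of CHEK2 also lies in another window than its annotated 5′ end, and there the RefSeq window was the more methylated, at 15.3 to 17.6%. No deposited window held the RefSeq starts of ATM (chr11:108223067 and 108223325) or the downstream RefSeq starts of MDM2 (chr12:68809017 and 68809024). The levels at those starts are therefore unknown.

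**Figure D1:**
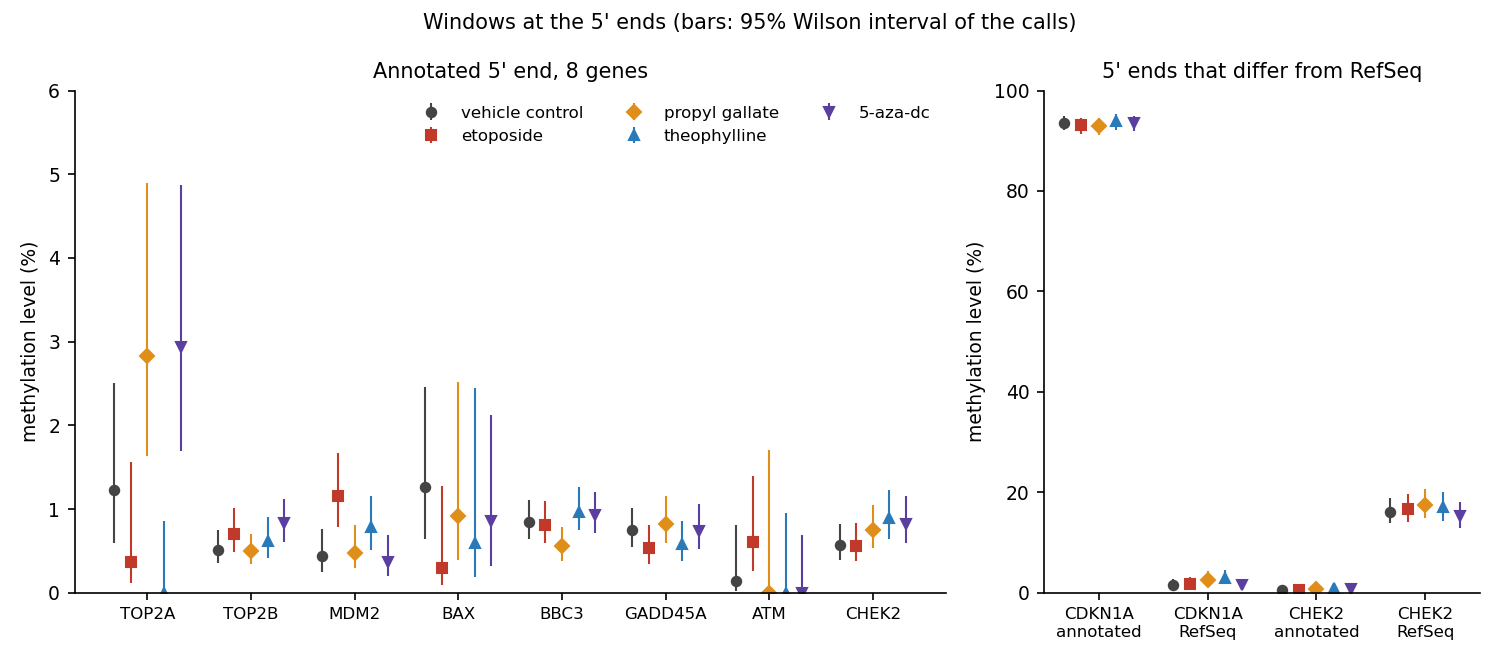
Methylation level (%) of windows at 5′ ends in the 5 libraries, with 95% Wilson intervals of the calls, on the left for the annotated 5′ end of 8 genes and on the right, on a wider axis, for CDKN1A and CHEK2 by the annotated and by the RefSeq start. The 8 genes lie below 5%, CDKN1A lies near 93% by the annotation and at 1.52 to 2.89% by RefSeq, and CHEK2 lies below 1% by the annotation and at 15.3 to 17.6% by RefSeq.

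At the topoisomerases, the TOP2A window chr17:40417001-40418000, which holds the start of the sequence above, was at 1.22% in the control, 0.367% after etoposide, 2.83% after propyl gallate and 2.93% after 5-aza-dc. After theophylline none of 444 calls was methylated, which allows a level of up to 0.676%. Here and below, the limit where no call was methylated is 3 divided by the number of calls, which is lower than the upper Wilson bound. The TOP2B window chr3:25664001-25665000 was between 0.497 and 0.834%. At the kinases, the ATM window chr11:108222001-108223000, 44 bases upstream of the annotated 5′ end, was at 0.144% in the control and 0.610% after etoposide. No call was methylated there in the other 3 libraries. This allows up to 1.35% of 222 calls after propyl gallate, 0.748% of 401 calls after theophylline and 0.541% of 555 calls after 5-aza-dc. The CHEK2 window chr22:28742001-28743000 was between 0.553 and 0.897%. MDM2 (chr12:68808001-68809000) lay between 0.372 and 1.16%, GADD45A (chr1:67685001-67686000) between 0.536 and 0.826%, BAX (chr19:48954001-48955000) between 0.300 and 1.26%, and BBC3 (chr19:47231001-47232000, 766 bases inside the gene) between 0.554 and 0.967%. None of these windows was called different from the control after any chemical.

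Intermediate levels were found at edges of these unmethylated stretches and, in BBC3, inside such a stretch. CHEK2 changed from below 1% to an intermediate level within 1 window, since chr22:28741001-28742000, which holds the RefSeq start of the printed sequence, was at 16.2% in the control, 16.7% after etoposide, 17.0% after theophylline, 17.6% after propyl gallate and 15.3% after 5-aza-dc. BBC3 had a run of 6 windows from 1.3 to 6.3 kb into the gene, 5 of them below 5% and chr19:47229001-47230000 between them at 11.0 to 19.3%. Of all 85 windows, 18 (21.2%) had a mean level below 5%, 4 (4.71%) lay between 5 and 70%, and 63 (74.1%) were at 70% or above. Over the genome these shares were 8.34, 7.36 and 84.3%. CpG islands made up 22 of the 85 windows (25.9%) and 17.3% of all windows.

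**Figure D2:**
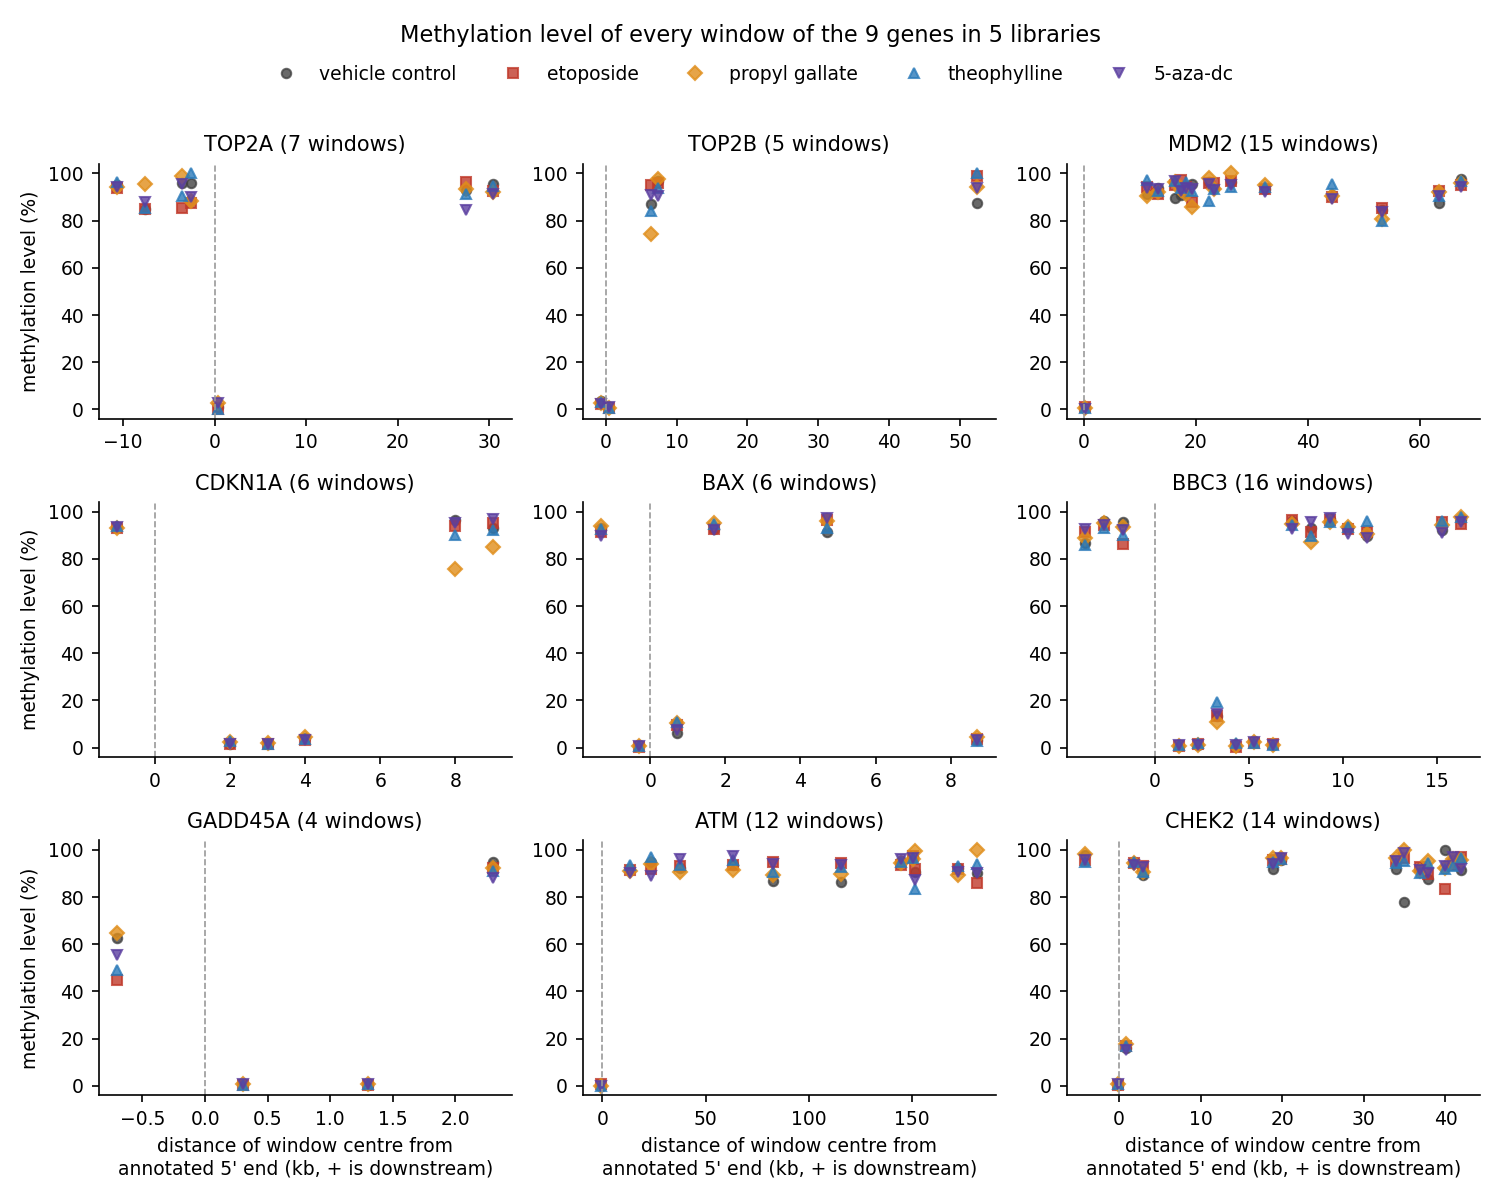
Methylation level (%) of all 85 windows against the distance of the window centre from the annotated 5′ end (kb), with 1 panel per gene and 1 symbol per library; the dashed line marks the 5′ end. Windows next to most 5′ ends lie near 0, gene bodies and flanks lie mostly above 80%, and GADD45A has a window at 44.8 to 64.8% just upstream.

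Windows were called different where Fisher's exact test (two-sided, Benjamini-Hochberg adjusted over all 288391 windows of a comparison) gave an adjusted p under 0.01. After etoposide, 8 of the 85 windows were called (9.41%, 5 higher and 3 lower), against 10.1% of all windows (6.38% higher and 3.74% lower). After propyl gallate 7 were called (8.24%, 5 higher and 2 lower), against 10.3% (6.55% and 3.71%). After theophylline 7 were called (8.24%, 6 higher and 1 lower), against 11.0% (8.13% and 2.86%). After 5-aza-dc 5 were called (5.88%, 3 higher and 2 lower), against 14.0% (3.55% and 10.4%). At this threshold the shares in the 9 genes were thus near or below the background for each chemical. With a difference of at least 10 percentage points required as well, the counts in the same order were 4 (2 higher, 2 lower), 2 (1 higher, 1 lower), 1 (higher) and 1 (higher), and the background was 2.32, 2.22, 2.27 and 3.64% of all windows. By this rule the share of the 85 windows was near or below the background after propyl gallate, theophylline and 5-aza-dc. After etoposide it was above the background, but 4 windows are too few to tell the 2 apart. Of these 4, 1 was a CHEK2 window called after all 4 chemicals. With calls divided by 2, the count after etoposide was 0. Higher calls of that size made up 1.36, 1.34, 1.59 and 0.876% of all windows, and lower ones 0.956, 0.878, 0.681 and 2.76%.

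The called windows lay mostly at high methylation, where most windows lay in any case. Of the windows of the 9 genes 74.1% were at 70% or above, and of all windows 84.3%. None of the 18 windows below 5% was called after any chemical. Over the genome 4.44% (etoposide), 4.51% (propyl gallate), 4.52% (theophylline) and 6.77% (5-aza-dc) of windows at such levels were called. With shares this low, 18 windows are too few to tell whether these genes differed from the background. The 27 calls among 340 comparisons fell in 18 windows, of which 13 were called after 1 chemical, 4 after 2 or 3, and 1 after all 4. Windows called after all 4 chemicals made up 0.606% of all windows. Most calls, in the 9 genes as over the genome, depended on treating calls as independent: with all calls divided by 2 only 4 of the 27 remained below 0.01 (0, 2, 1 and 1 in the order etoposide, propyl gallate, theophylline, 5-aza-dc). The share of all windows called fell likewise, to 1.2, 1.17, 1.28 and 2.73%. The 4 were the CDKN1A window after propyl gallate, the BAX window after propyl gallate and theophylline, and the CHEK2 window after 5-aza-dc, all described below.

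**Figure D3:**
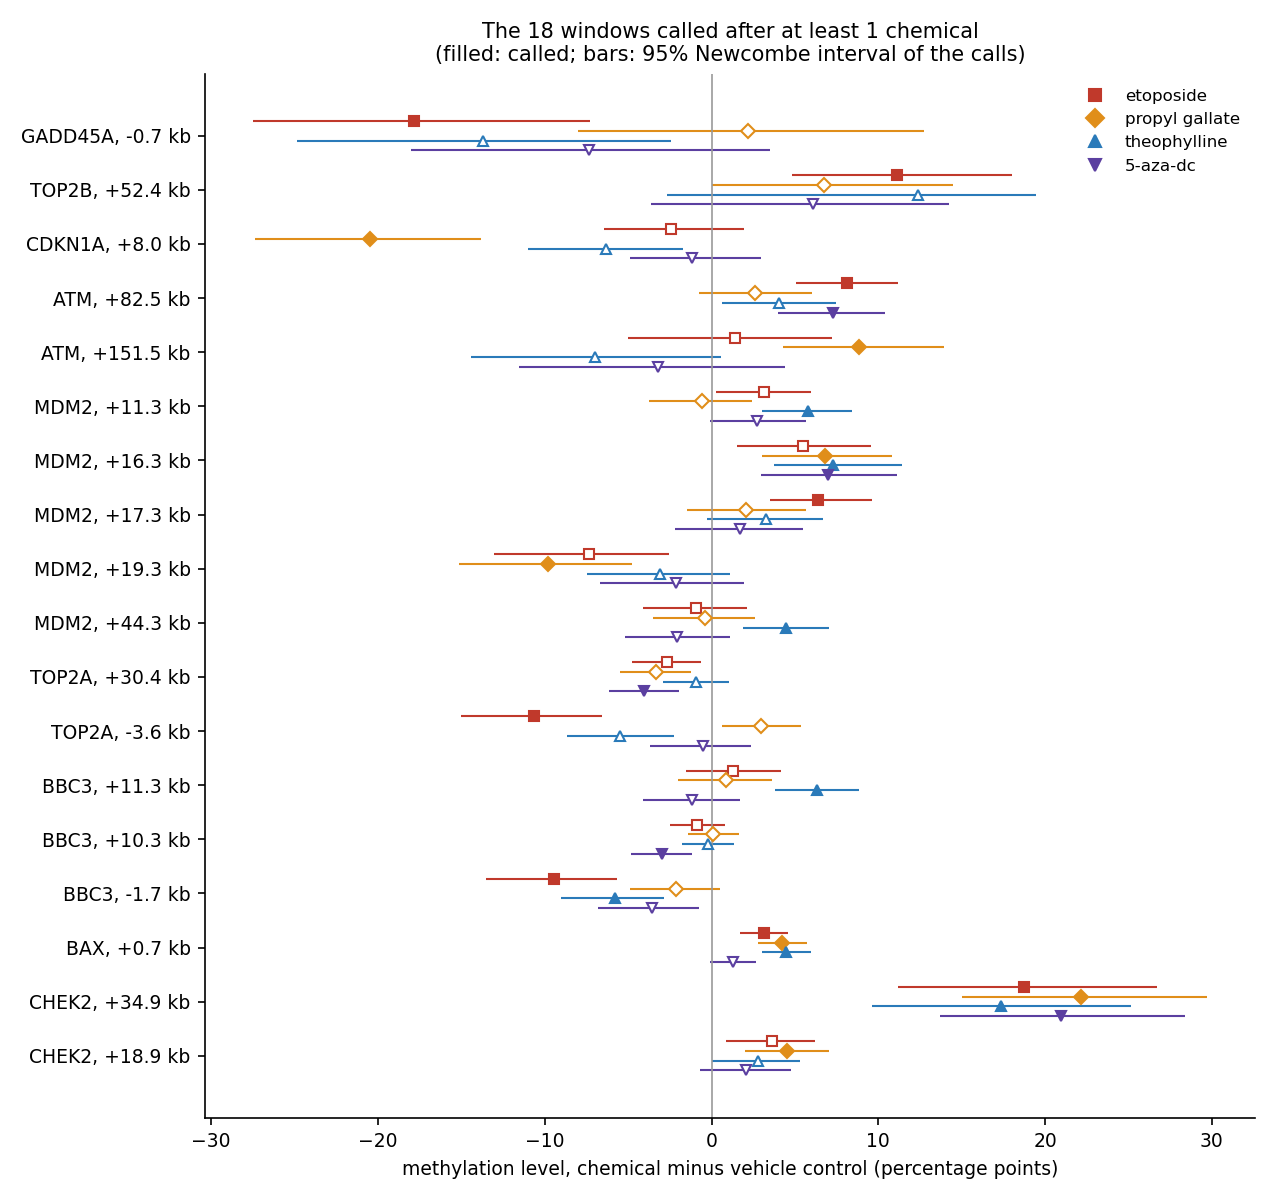
Difference in methylation level from the vehicle control (percentage points) for the 18 windows called after at least 1 chemical, labelled by gene and by distance of the window centre from the 5′ end. Bars are 95% Newcombe intervals of the calls and filled symbols are calls, with the largest differences at CHEK2 (22.1 points higher after propyl gallate) and CDKN1A (-20.5 points after propyl gallate).

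Among the targets of etoposide, TOP2A was called after etoposide in a CpG island shore upstream of the gene. The window chr17:40421001-40422000, centred 3.6 kb upstream, was at 96.0% in the control, 85.4% after etoposide, 90.5% after theophylline, 99.0% after propyl gallate and 95.5% after 5-aza-dc. The difference of the etoposide library from the control was -10.6 points (95% interval -15.0 to -6.57, Fisher's exact test, adjusted p = 1.73e-05). By the same exact test etoposide was also below propyl gallate (adjusted p = 4.42e-10) and below 5-aza-dc (adjusted p = 9.39e-05), whereas its difference from theophylline did not pass (adjusted p = 0.0995). Further upstream, at 7.6 kb, propyl gallate was 10.9 points above the control (95.7% against 84.8%, with 65 calls) and was not called (exact test, adjusted p = 0.14). A TOP2A window beyond the 3′ end, chr17:40387001-40388000, was at 95.4% in the control and 91.4% after 5-aza-dc (exact test, adjusted p = 0.00199).

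For TOP2B, chr3:25612001-25613000, 52.4 kb into the gene, was at 87.6% in the control, 98.7% after etoposide, 100% after theophylline, 94.3% after propyl gallate and 93.7% after 5-aza-dc. The control was lowest, and etoposide was 11.1 points higher (exact test, adjusted p = 0.00679). Theophylline had 23 calls there and its difference of 12.4 points was not called. In chr3:25658001-25659000, 6.4 kb into the gene, the levels were 86.9% in the control, 95.3% after etoposide, 83.9% after theophylline, 74.2% after propyl gallate and 91.0% after 5-aza-dc. No chemical was called against the control in this window, but etoposide and propyl gallate differed by 21.1 points (exact test, adjusted p = 3.03e-06). Etoposide thus lay below the control in the called window of TOP2A and above it in that of TOP2B.

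In the kinase genes, calls lay in gene bodies or beyond the gene. The ATM window chr11:108305001-108306000, 82.5 kb into the gene, was at 86.6% in the control, 94.8% after etoposide, 90.7% after theophylline, 89.2% after propyl gallate and 93.9% after 5-aza-dc. Etoposide was 8.10 points higher (exact test, adjusted p = 1.87e-05) and 5-aza-dc 7.27 points higher (adjusted p = 0.000369). In chr11:108374001-108375000, a CpG island beyond the 3′ end of ATM, propyl gallate stood highest at 99.4%, against 90.6% in the control, 92.0% after etoposide, 83.6% after theophylline and 87.4% after 5-aza-dc. Propyl gallate differed there from each of the other 4 libraries at an adjusted p under 0.01, the highest being 0.00896 against etoposide.

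The widest range in CHEK2 was in an intron, 34.9 kb into the gene, at chr22:28707001-28708000. The level was 77.9% in the control, 96.6% after etoposide, 95.2% after theophylline, 100% after propyl gallate and 98.8% after 5-aza-dc. The chemical libraries were 18.7 (exact test, adjusted p = 0.000104), 22.1 (adjusted p = 1.33e-06), 17.3 (adjusted p = 0.00025) and 21.0 points (adjusted p = 6.11e-07) higher than the control, and no 2 of them differed from each other at 0.01. All 4 comparisons share the 1 control library, which had 140 calls there, so they are not separate differences. A further CHEK2 window, 18.9 kb into the gene, was at 92.0% in the control and 96.5% after propyl gallate (exact test, adjusted p = 0.00572). A library differed from each of the other 4 by at least 10 points in 2 member windows, the intron window of CHEK2 and a CDKN1A window. Over the genome the control stood apart in this way in 0.103% of windows, etoposide in 0.13%, propyl gallate in 0.105%, theophylline in 0.109% and 5-aza-dc in 0.641%. Without the minimum of 10 points, propyl gallate also stood apart in the ATM island and theophylline in 1 window each of MDM2 and BBC3, and these shares were 0.577, 0.722, 0.671, 0.866 and 2.85%.

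In MDM2, whose product holds p53 in check, windows were called in both directions. In chr12:68824001-68825000, a window inside the gene that the annotation gave to no gene, the control was lowest at 89.7%, with 95.1% after etoposide, 97.0% after theophylline, 96.5% after propyl gallate and 96.7% after 5-aza-dc. Propyl gallate, theophylline and 5-aza-dc passed the exact test there (adjusted p = 0.00507, 0.00191 and 0.00617). In chr12:68827001-68828000, 19.3 kb into the gene, the control was highest at 95.5%, with 88.1% after etoposide, 92.4% after theophylline, 85.7% after propyl gallate and 93.3% after 5-aza-dc, and the difference of propyl gallate from the control was -9.80 points (exact test, adjusted p = 0.00226). A further 3 windows were higher than the control after 1 chemical each, by 4.47 to 6.36 points.

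The arrest genes held the largest decreases. CDKN1A was lower after propyl gallate by a difference of -20.5 points (95% interval -27.4 to -13.8, exact test, adjusted p = 1.67e-07) in chr6:36684001-36685000, a CpG island shelf 8 kb into the gene. The levels there were 96.3% in the control, 93.8% after etoposide, 89.9% after theophylline, 75.8% after propyl gallate and 95.1% after 5-aza-dc, and propyl gallate was below each other library, with adjusted p between 1.67e-07 and 0.00185. In the next window, 9 kb into the gene, propyl gallate was again lowest at 84.8% (control 93.2%), without passing the test.

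GADD45A had the only upstream CpG island window at an intermediate level. In chr1:67684001-67685000, 0.7 kb upstream, the level was 62.6% in the control, 44.8% after etoposide, 49.0% after theophylline, 64.8% after propyl gallate and 55.3% after 5-aza-dc. Control and propyl gallate were the highest and etoposide the lowest. The difference of etoposide from the control was -17.8 points (95% interval -27.5 to -7.26, exact test, adjusted p = 0.00962, close to the threshold), and propyl gallate was 20.0 points above etoposide (exact test, adjusted p = 0.0048). The window had between 125 and 180 calls per library. The 2 windows downstream, over the 5′ end and the gene, stayed between 0.536 and 0.826% in all libraries.

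Of the apoptosis genes, BAX differed at the border of its unmethylated 5′ end. The island window chr19:48955001-48956000, 0.7 kb into the gene, was at 6.36% in the control, 9.48% after etoposide, 10.8% after theophylline, 10.6% after propyl gallate and 7.63% after 5-aza-dc; it was named after its values were seen. Etoposide was 3.12 (exact test, adjusted p = 0.000486), propyl gallate 4.20 (adjusted p = 1.11e-06) and theophylline 4.49 points higher (adjusted p = 1.54e-07), with 2240 to 3225 calls per library. The difference of 5-aza-dc, 1.28 points, did not pass. The widest range within BAX was 4.7 kb into the gene (chr19:48959001-48960000), from 91.3% in the control to 97.5% after 5-aza-dc, with no call.

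BBC3 was lower after etoposide and theophylline upstream of the gene. In chr19:47234001-47235000, 1.7 kb upstream, the level was 95.7% in the control, 86.3% after etoposide, 89.9% after theophylline, 93.6% after propyl gallate and 92.2% after 5-aza-dc. The difference from the control was -9.46 points for etoposide (exact test, adjusted p = 1.79e-05) and -5.81 points for theophylline (adjusted p = 0.0021). In chr19:47221001-47222000, near the 3′ end of the gene, theophylline was at 96.2% and above each other library (88.7 to 91.2%), by 6.33 points over the control (exact test, adjusted p = 5.76e-05). In the neighbouring window the 5-aza-dc library was at 90.6% against 93.5% in the control (exact test, adjusted p = 0.0096).

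Averaged over the 85 windows, the difference of each chemical from the control had a 95% counting interval that included 0. The mean difference from the control was 0.140 points after etoposide (95% interval -0.438 to 0.671), 0.328 after propyl gallate (-0.162 to 0.840), 0.371 after theophylline (-0.128 to 0.882) and 0.0918 after 5-aza-dc (-0.420 to 0.609). Over all windows the mean differences were 0.513, 0.566, 0.975 and -1.03 points. The median difference of the 85 windows was -0.00861, 0.0824, 0.0532 and -0.146 points, against 0.338, 0.358, 0.695 and -0.637 over all windows. The level was higher than in the control in 42, 44, 43 and 34 of the 85 windows (49.4, 51.8, 50.6 and 40.0%), against 54.9, 55.3, 59.9 and 40.9% of all windows. Other averages gave values outside these intervals: with the calls of all 85 windows pooled the difference was 1.96 points for theophylline, -0.631 for propyl gallate and -1.14 for 5-aza-dc, and with windows assigned by symbol only it was -0.774 for etoposide. The difference between the 9 genes and the other windows was not tested, since windows of 1 library are not replicates.

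Of the 36 mean differences of single genes, 12 had a 95% interval that excluded 0, and 5 of these also did without the window of widest range in the gene. After etoposide, the mean difference was -2.83 points in TOP2A (95% interval -4.87 to -0.873) and 3.55 points in TOP2B (1.65 to 5.67). Without that window in each gene these became -1.53 (-3.79 to 0.651) and 2.35 points (0.463 to 4.38). In TOP2B the window left out was chr3:25658001-25659000, which was not called, so the window called after etoposide stayed in. The mean of TOP2B without its called window was not computed, and the median difference of its windows was 0.193 points. In GADD45A it was -5.16 points (-8.05 to -2.24), and -0.929 (-2.96 to 0.847) without its upstream window. After propyl gallate it was -4.59 points in CDKN1A (-6.43 to -2.85), and -1.41 (-3.13 to 0.214) without the window 8 kb into the gene. In CHEK2 it was 2.82 points (1.25 to 4.84), and 1.33 (-0.268 to 3.43) without the window in which the control stood apart. Besides TOP2B after etoposide, the following means kept an interval excluding 0. TOP2A after 5-aza-dc was at -2.06 (-4.40 to -0.0337), and at -2.32 (-5.01 to -0.00777) without the window. BAX after propyl gallate was at 2.09 (0.796 to 3.31) and 1.56 (0.289 to 2.73). GADD45A after 5-aza-dc was at -3.45 (-6.79 to -0.309) and -2.16 (-4.80 to -0.0383). ATM after theophylline was at 1.24 (0.0991 to 2.34) and 1.98 (0.959 to 2.99). Several bounds lie close to 0, and the intervals cover counting error only. Over all windows the means were -1.03 after 5-aza-dc, 0.566 after propyl gallate and 0.975 after theophylline. For TOP2A after 5-aza-dc and BAX after propyl gallate, too, the called window stayed in.

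**Figure D4:**
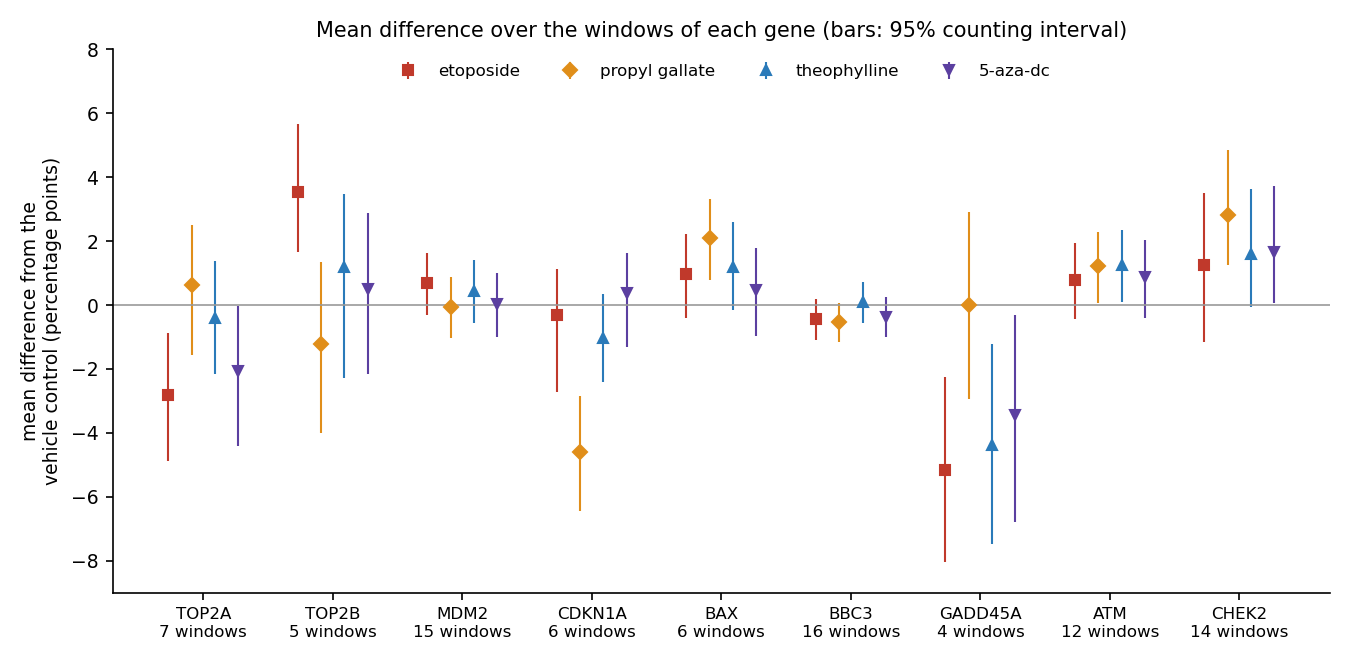
Mean difference in methylation level from the vehicle control (percentage points) over the windows of each gene, with 95% counting intervals, for the 4 chemicals. GADD45A after etoposide (-5.16) and CDKN1A after propyl gallate (-4.59) lie lowest and TOP2B after etoposide (3.55) highest.

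The mean differences after the 4 chemicals were also used to find the genes of most similar pattern among 26601 genes with at least 3 windows, by the root mean square distance. GINS4 was nearest to TOP2A (0.257 points), PROX2 to TOP2B (0.205), HES1 to MDM2 (0.0855), CHMP1B to CDKN1A (0.364), LINC01630 to BAX (0.0888), SPEN-AS1 to BBC3 (0.0440), RPS26P18 to GADD45A (0.470), ANKRD49P2 to ATM (0.0492) and SNX32 to CHEK2 (0.170). No member was among the 3 nearest of another, which says little about how alike the members were, since 26601 genes were compared. The distances were not set against those of other genes, and the 4 values of every gene share the control library.

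Other genes of the same pathways were taken as 3 lists. The list of topoisomerases, adduct repair enzymes and partner proteins (9 genes, 75 windows) had 9 windows called after etoposide (5 higher, 4 lower), 5 after propyl gallate (2 higher, 3 lower), 5 after theophylline (2 higher, 3 lower) and 9 after 5-aza-dc (all lower). Its windows called after 5-aza-dc by at least 10 points were in TOP3B, a type I topoisomerase (95.8% in the control, 72.9% after 5-aza-dc, exact test, adjusted p = 0.00271), and at ZNF451, a SUMO ligase that acts with TDP2 on trapped topoisomerase II (91.2% and 80.8%, adjusted p = 5.87e-05). The break signalling and repair list (15 genes, 168 windows) had 11 windows called after etoposide (10 higher, 1 lower), 18 after propyl gallate (13 higher, 5 lower), 16 after theophylline (12 higher, 4 lower) and 21 after 5-aza-dc (5 higher, 16 lower). A window assigned to RAD50, a part of the complex that tethers broken ends, was lowest in the control at 79.5% and was called at 90.5% after etoposide (exact test, adjusted p = 0.00869) and 90.6% after propyl gallate (adjusted p = 0.002). One assigned to LIG4, the ligase of end joining, was labelled intergenic by the annotation (chr13:108085001-108086000). It was at 97.3% in the control and 66.7% after 5-aza-dc (22 calls, exact test, adjusted p = 0.00335).

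The list of p53 regulators and targets (20 genes, 168 windows) had 14 windows called after etoposide (10 higher, 4 lower), 16 after propyl gallate (12 higher, 4 lower), 16 after theophylline (12 higher, 4 lower) and 28 after 5-aza-dc (6 higher, 22 lower). At SESN1, a stress-induced p53 target, an intergenic island window (chr6:109046001-109047000) was at 59.3% in the control and at 93.6, 86.2, 88.3 and 83.6% in the order etoposide, propyl gallate, theophylline, 5-aza-dc, all called. As in the CHEK2 intron window, the control was the lowest library, and all 4 comparisons share it. Differences among the chemical libraries were not examined at SESN1. In ZMAT3, a p53 target that binds RNA, an intron window was likewise lowest in the control, at 80.1%, and was called at 100% after etoposide (exact test, adjusted p = 1.75e-06), 97.4% after propyl gallate (adjusted p = 0.00439) and 97.9% after 5-aza-dc (adjusted p = 0.00129). The called shares of the 3 lists were 12.0, 6.55 and 8.33% after etoposide (10.1% of all windows), 6.67, 10.7 and 9.52% after propyl gallate (10.3%), 6.67, 9.52 and 9.52% after theophylline (11.0%) and 12.0, 12.5 and 16.7% after 5-aza-dc (14.0%). The median difference after 5-aza-dc was -0.212, -0.529 and -0.810 points in the 3 lists, against -0.637 over all windows.

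**Figure D5:**
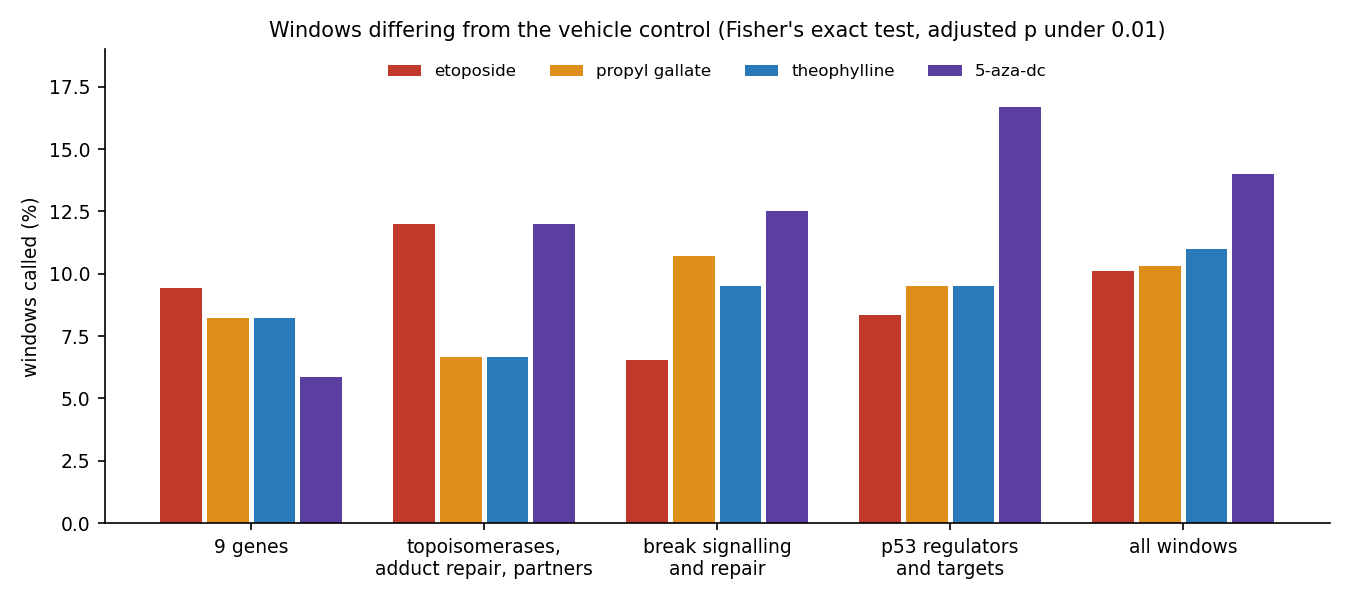
Share of windows (%) called different from the vehicle control at an adjusted p under 0.01 for the 9 genes (85 windows), the 3 pathway lists (75, 168 and 168 windows) and all 288391 windows, by chemical. For 5-aza-dc the 9 genes have the lowest bar (5.88%) and the p53 list the highest (16.7%), with all windows at 14.0%.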

How the data were processed

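RRBS libraries of 5 cultures were analysed. The submitters' processing notes list Trim Galore 0.5.0, Bismark 0.20.0, SAMtools 1.9, methylKit 1.10.0 and hg38. The deposited control columns are raw counts of calls per window. In the other libraries the deposited coverage columns are scores, since the authors had scaled the calls and rounded them, with factors of 1.18 for etoposide, 1.15 for theophylline, 1.09 for propyl gallate and 1.21 for 5-aza-dc; the scaling was undone before testing. Levels are the deposited β-values, a fraction printed here as percent. Wilson and Newcombe 95% intervals and Fisher's exact tests used the recovered calls (Python 3.11.15, scipy 1.17.1, numba 0.67.0). The test was checked on simulated independent calls. There 200 windows with at least 300 calls were changed by 25 points, and all 200 were called in the right direction. No unchanged window was called. The check does not cover smaller differences, fewer calls or calls that depend on each other.

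Members and lists were chosen with earlier results of these data known. Windows were named where they held or lay nearest the 5′ end, were called with at least 10 points, or had the gene's widest range with at least 30 calls in all 5 libraries. Other thresholds, call numbers, assignments and averages were tried. Coordinates are hg38. DNA extraction is described with different kits in the labels and the methods.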

Additional observations from a re-analysis of the deposited data

How the results depend on the processing

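No paired analysis was possible because each condition was a single library; for the same reason no library could be left out of a group. At an adjusted p under 0.05, 14, 13, 11 and 12 of the 85 windows were called in the order etoposide, propyl gallate, theophylline, 5-aza-dc, against 18.3, 18.5, 19.3 and 22.9% of all windows. With calls divided by 2 the counts were 0, 2, 1 and 1 (1.2, 1.17, 1.28 and 2.73% of all windows), and with at least 10 points 0, 1 and 0 for the first 3. With calls divided by 5, or at least 25 points required, every count was 0 (with calls divided by 5, 0.0163, 0.018, 0.0194 and 0.0874% of all windows), and in the latter case so were those of windows in which the control or propyl gallate stood apart. Without a minimum difference, propyl gallate and theophylline each stood apart in 2 windows. For the counts at 25 points, and at 10 points with calls divided by 2, no share of all windows is given. Windows assigned by symbol only leave out the 39 that the annotation gave to another gene or to none. They gave 5 calls for etoposide, 4 for propyl gallate and 3 for 5-aza-dc, and a mean etoposide difference of -0.774 points. These counts come from fewer windows than the 85, so a lower count is not a lower share. Pooling all calls gave 1.96 for theophylline, -0.631 for propyl gallate and -1.14 for 5-aza-dc, and the mean log2 ratio for etoposide was -0.00933. The causes were not tested. No sign of the 4 means held under every alternative. For etoposide and 5-aza-dc, without the CHEK2 window in which the control stood apart, an alternative chosen after seeing the data, the means were -0.0810 and -0.157 points, and the mean of the 9 gene means gave -0.163 and -0.217. That mean was also below 0 for theophylline, at -0.00850, as was that by symbol only, at -0.0499. The calls as deposited and minimums of 30 or 100 calls kept each count within 1.5 times. The means of single genes without 1 window were also added after seeing the data.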
